A study of Rattus norvegicus with 6 samples.

Results

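Single-nucleus RNA sequencing (snRNAseq) of the adult rat forebrain after stroke contained 845 GABAergic neuron nuclei that carried transcripts of the prolactin receptor gene Prlr, of Stac, of Baiap3 or of the glycine receptor subunit gene Glra3. They were 845 of the 73649 nuclei that passed quality control and 845 of the 52858 neuron nuclei. They were also 845 of the 16858 neuron nuclei with a Gad1 or Gad2 molecule and no vesicular glutamate transporter molecule. Each had at least 5 unique molecular identifiers (UMIs, the count of captured RNA molecules) of Snap25, Syt1 and Rbfox3 together, at least 1 of Gad1 and Gad2 together, and 0 of the vesicular glutamate transporter genes Slc17a7 and Slc17a6. Each also had at least 3 UMIs of Prlr, Stac, Baiap3 and Glra3 summed, at most 2 of the striatal genes Rarb and Rgs9, at most 1 of the interneuron genes Sst, Vip and Pvalb, and 0 of the cholinergic genes Chat and Slc5a7. The symbol Pvalb was found in no gene table, so 17 of the 18 genes acted in the selection. These nuclei are called Prlr/Stac/Baiap3/Glra3 nuclei below, after the genes that chose them.

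All 11 animals were wild-type male rats of 12 weeks, and nuclei were taken 48 h after surgery. The MCAO rats had a permanent filament occlusion of the right middle cerebral artery, and the 4 Sham rats had the operation without occlusion. The 6 libraries formed 3 groups of 2. Sham L and Sham R (Sham) were the left and right hemispheres of the same 4 rats. The hemisphere opposite the occlusion (MCAO contra) and the occluded hemisphere (MCAO ipsi) were each sequenced from a pool of 3 rats with moderate injury (mMCAO) and a pool of 4 rats with severe injury (sMCAO). Paired values below are in the order left then right for Sham and moderate then severe for MCAO. Each library pooled the nuclei of its rats, so no value belongs to 1 animal, the 2 MCAO libraries of a group differ in severity, and the spread between the Sham libraries is a spread between hemispheres. The libraries held 33012945 to 52513380 UMIs over all their nuclei, before quality control, and 8665 to 14491 nuclei after it.

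GABAergic neurons release the inhibitory transmitter GABA and dominate many nuclei beneath the cortex, among them the septum, the bed nucleus of the stria terminalis, parts of the amygdala and much of the hypothalamus. Several of these populations sense hormones. The prolactin receptor is a cytokine receptor that signals through the kinase JAK2 and the transcription factor STAT5. Stac encodes an adaptor protein that binds voltage-gated calcium channels, Baiap3 encodes a relative of the Munc13 vesicle priming proteins, and Glra3 encodes the α3 subunit of the glycine receptor, a chloride channel.

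Barcodes and depth need a remark before the values. Any pair of libraries shared 118 to 281 cell barcodes, or 1.34 to 2.18% of the smaller library, and 1 barcode belonged to a Prlr/Stac/Baiap3/Glra3 nucleus in both sMCAO contra and sMCAO ipsi. The sMCAO ipsi library stood apart in depth and make-up: the selected nuclei had a median of 6561 UMIs there and 2831.5 to 4272 in the other 5 libraries, and only 3215 of its 8665 nuclei were neurons against 8077 to 11369 neuron nuclei in the others. A nucleus with more UMIs reaches a sum of 3 more easily, so shares and detection rates are given with the depth beside them.

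The selected nuclei made up a larger share of the neurons in sMCAO ipsi than in any other library. In Sham they were 161 of 10534 neuron nuclei on the left (1.53%, exact Clopper-Pearson 95% interval 1.30 to 1.78%) and 86 of 11369 on the right (0.756%, 0.605 to 0.933%). In MCAO contra they were 184 of 10751 in the moderate pool (1.71%, 1.47 to 1.97%) and 126 of 8077 in the severe pool (1.56%, 1.30 to 1.85%). In MCAO ipsi they were 100 of 8912 in the moderate pool (1.12%, 0.914 to 1.36%) and 188 of 3215 in the severe pool (5.85%, 5.06 to 6.72%). The 2 MCAO ipsi libraries lay at opposite ends of the MCAO range, and the mMCAO ipsi share fell between the 2 Sham shares, so Sham and MCAO ipsi overlapped. These intervals cover counting error only. The groups were not tested against each other. The smallest p that an exact permutation test reaches with 2 libraries a group is 0.33.

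The excess of sMCAO ipsi over the other libraries was smaller when every nucleus was set to the same depth, a step that also leaves out the shallow nuclei. With every nucleus thinned to 2000 UMIs and shallower nuclei left out, the share of neurons was 0.443% and 0.180% in Sham, 0.476% and 0.520% in MCAO contra, and 0.284% and 1.05% in MCAO ipsi. The last value rested on 30 nuclei of 2845 (interval 0.713 to 1.5%), and it overlapped the interval of sMCAO contra (0.362 to 0.722%). Of all nuclei rather than of neurons, the unthinned share was 2.17% in sMCAO ipsi and 0.631 to 1.27% in the others. A share says nothing of absolute numbers: a larger count of these nuclei and a smaller count of other neurons cannot be told apart here.

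**Figure D1:**
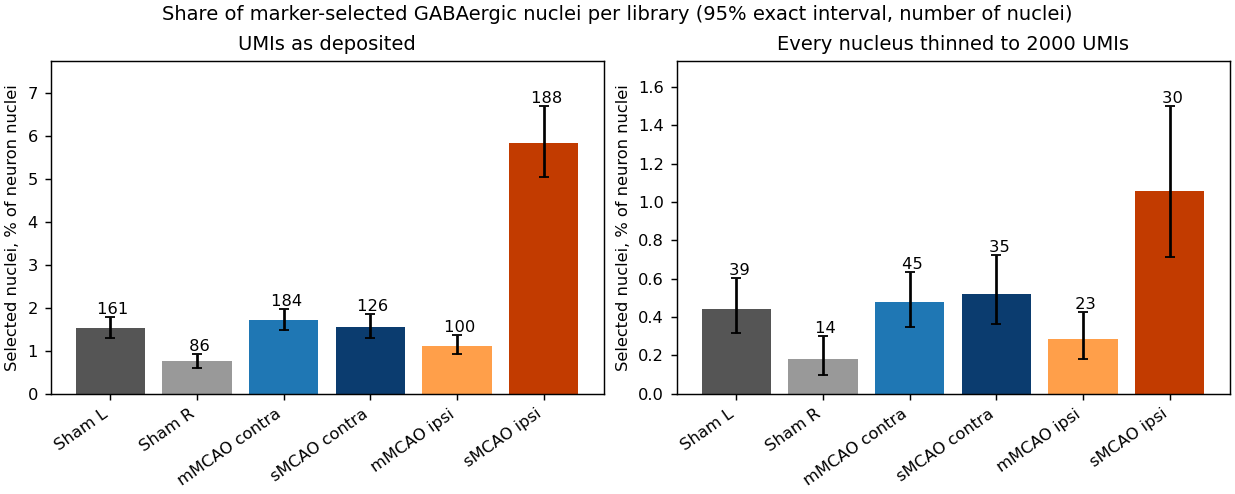
Bars give the share of neuron nuclei that met the selection in each of the 6 libraries, in percent, with UMIs as deposited (left) and after thinning every nucleus to 2000 UMIs (right), with exact 95% intervals for counting error and the number of selected nuclei above each bar. The sMCAO ipsi library is highest in both panels, at 5.85% and 1.05%.

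All 4 selecting genes were rarely detected in 1 nucleus, which a sum of few UMIs also limits, since 402 of the nuclei had exactly 3. Of the 845 nuclei, 380 had only 1 of the 4 genes detected, 370 had 2, 90 had 3 and 5 had all 4. Glra3 gave the most UMIs in 460 nuclei, Stac in 212, Prlr in 102 and Baiap3 in 15, and 56 nuclei were tied. Glra3 supplied 50.4% of all 3812 marker UMIs, Stac 30.7%, Prlr 14.3% and Baiap3 4.54%. Glra3 was the only gene detected in 239 nuclei, Stac in 111, Prlr in 30 and Baiap3 in 0.

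The selection sat on the shoulder of a falling curve. Of the 9703 nuclei that met every other criterion, 6582 had 0 UMIs of the 4 genes, 1583 had 1, 693 had 2, 402 had 3, 186 had 4 and 257 had 5 or more. Thus 402 of the 845 nuclei were just inside the limit and 693 just outside it.

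The nuclei were selected on the measured UMIs of these 4 genes, so the levels of the 4 genes are a description and carry no test. Glra3, in counts per 1000000 UMIs (CPM) summed over the selected nuclei, was 548 and 534 in Sham, 458 and 511 in MCAO contra, and 609 and 333 in MCAO ipsi. The lowest and the highest values were both from MCAO ipsi. Stac was 283 and 578 CPM in Sham, 262 and 380 in MCAO contra, and 160 and 227 in MCAO ipsi, so both MCAO ipsi libraries lay below both Sham libraries. Prlr was 101 and 80.7 CPM in Sham, 128 and 165 in MCAO contra, and 109 and 151 in MCAO ipsi, with the 2 Sham libraries lowest. Baiap3 was 40.3 and 30.2 CPM in Sham, 45.9 and 36.0 in MCAO contra, and 44.5 and 42.7 in MCAO ipsi, so both MCAO ipsi libraries lay above both Sham libraries and within the range of MCAO contra.

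Detection per nucleus was read beside these levels. A Prlr UMI was present in 19.9% and 20.9% of the selected nuclei of Sham, 25% and 40.5% of those of MCAO contra, and 26% and 38.8% of those of MCAO ipsi. The severe pool was highest in both hemispheres. Prlr is 1 of the 4 genes that selected the nuclei, so these shares are a description, and the part of depth in them was not tested. A Stac UMI was present in 52.2% and 59.3% of the Sham nuclei, 44.0% and 42.1% of the MCAO contra nuclei, and 29% and 39.4% of the MCAO ipsi nuclei. Nuclei with oligodendrocyte transcripts, which should lack these genes, had a Glra3 UMI in at most 1.5% and any of the other 3 in at most 0.5%, at a median of 696 to 1200 UMIs.

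**Figure D2:**
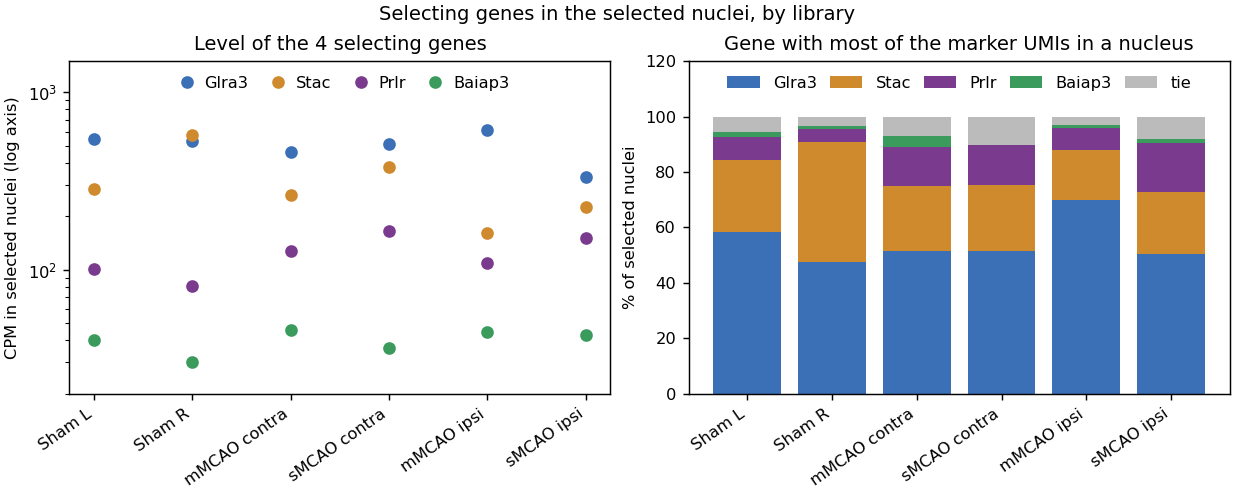
Left, level of each selecting gene in the selected nuclei, in CPM of summed UMIs on a log axis, with 1 point per library, and right, percent of the selected nuclei of a library in which each gene had the most of the marker UMIs. Glra3 leads in 47.7 to 70% of the nuclei of every library, and Prlr leads in 4.65 to 17.6%.

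Levels of other genes were set side by side for nuclei led by Glra3, Prlr and Stac, leaving out the 15 led by Baiap3 and the 56 tied. Of the 3, nuclei led by Prlr held the most Zfhx4 (444 CPM against 159 in Glra3-led and 142 in Stac-led nuclei) and the most Zfhx3 (351 against 174 and 122 CPM), 2 large homeodomain zinc finger factors. They also held the most of the oestrogen receptor gene Esr1 (83.1 against 15.4 and 22.9 CPM) and of the calcitonin receptor gene Calcr (58.8 against 10.3 and 9.01 CPM). Of the 3, nuclei led by Glra3 held the most Foxp2 (458 against 130 in Prlr-led and 152 in Stac-led nuclei), Meis2 (592 against 353 and 175 CPM) and Ebf1 (112 against 73.0 and 10.6 CPM). Of the 3, nuclei led by Stac held the most Lhx8 (68.0 CPM against 15.4 in Glra3-led and 18.3 in Prlr-led nuclei) and Lhx6 (52.4 against 18.7 and 10.1 CPM), LIM homeodomain factors of the ventral telencephalon. These are values of nuclei pooled over all libraries, with no test.

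Clustering without the selecting genes divided the 845 nuclei into 12 sub-clusters of 18 to 134 nuclei. They are described by their leading genes and given no cell type names. Sub-cluster 2 (133 nuclei) held the most Prlr, at 335 CPM, and was led by Stk32a, Kcnh8, Zfhx4 (552 CPM against 130 in the other selected nuclei), Calcr, the μ-opioid receptor gene Oprm1 (91.8 against 20.8 CPM) and Esr1 (83.7 against 19.4 CPM). Sub-cluster 4 (98 nuclei) held the most Stac, at 825 CPM, and was led by Tafa4 (346 against 10.7 CPM), the heparan sulphate enzyme gene Ndst4, Lhx8 (137 against 13.5 CPM) and the receptor tyrosine kinase gene Alk (2733 against 411 CPM). Sub-cluster 11 (25 nuclei) also held much Stac, at 732 CPM, with the chloride channel gene Ano2, the neurotrophin gene Ntf3 and the corticotropin-releasing hormone receptor gene Crhr2 (113 against 2.72 CPM).

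The Glra3-rich sub-clusters were several and unlike each other. Sub-cluster 3 (115 nuclei, Glra3 at 716 CPM) was led by Ano1, Myo5b, the protein kinase gene Prkcd (94.2 against 5.72 CPM) and the zinc finger gene Zic4 (58.9 against 3.81 CPM). Sub-cluster 7 (58 nuclei, Glra3 at 840 CPM) was led by Bnc2, Ebf1 (965 against 30.7 CPM) and Foxp2 (1911 against 228 CPM). Sub-cluster 9 (35 nuclei, also 840 CPM of Glra3) was led by Frem1, the relaxin receptor gene Rxfp1, Zbtb16, Nfib and Prox1, and had Erbb4 at 12613 CPM, a receptor gene that cortical interneurons express strongly. Sub-cluster 6 (80 nuclei) was led by Cdk15, Eya4, Satb1 (385 against 46.9 CPM) and Sox6, genes also found in interneurons derived from the medial ganglionic eminence.

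Sub-cluster 1 (134 nuclei) held the most Baiap3, at 101 CPM, together with Prlr at 234 and Glra3 at 584 CPM, and was led by Fign (246 against 42.2 CPM), the guanine deaminase gene Gda (138 against 37.4 CPM) and the transcription factor gene Dach1 (315 against 106 CPM). Sub-cluster 5 (82 nuclei) was led by Gpc5, the proteoglycan gene Vcan (180 against 21.9 CPM) and the homeobox gene Meis1 (221 against 31.5 CPM). Sub-cluster 8 (36 nuclei) held Stac at 535 and Prlr at 227 CPM and was led by the orphan nuclear receptor gene Nr4a3 and by Adamts9, each on fewer than 20 UMIs.

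Doublet-like nuclei were concentrated in a pair of sub-clusters. Sub-cluster 12 (18 nuclei) was led by Mobp, Bcas1 and the myelin basic protein gene Mbp (1198 against 42.0 CPM), genes of oligodendrocytes, and 10 of its 18 nuclei were marked as resembling simulated doublets. Sub-cluster 10 (31 nuclei) had Pdzrn3 (498 against 39.9 CPM) and the synaptic vesicle gene Sv2b (304 against 55.0 CPM) among its leading genes, and 17 of its 31 nuclei were so marked. By library 8 and 3 of the selected nuclei of Sham, 14 and 12 of MCAO contra, and 14 and 8 of MCAO ipsi were marked, and they stayed in the analysis.

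The mix of sub-clusters was not the same in each library. Sub-cluster 2, the Prlr-rich one, held 9.32% and 11.6% of the selected nuclei of Sham, 14.1% and 14.3% of those of MCAO contra, and 12% and 27.7% of those of MCAO ipsi. The sMCAO ipsi library was apart from the others, and the remaining 5 spanned a narrow range. Sub-cluster 1 held 10.6% and 8.14% of Sham, 12% and 25.4% of MCAO contra, and 18% and 20.2% of MCAO ipsi, with both Sham libraries lowest. Sub-cluster 4, the Stac- and Alk-rich one, held 13.7% and 25.6% of Sham, 10.3% and 13.5% of MCAO contra, and 4% and 7.45% of MCAO ipsi, so both MCAO ipsi libraries were below both Sham libraries. No test was made of these shares, since genes that lead a sub-cluster, Alk among them, also differed between the groups.

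**Figure D3:**
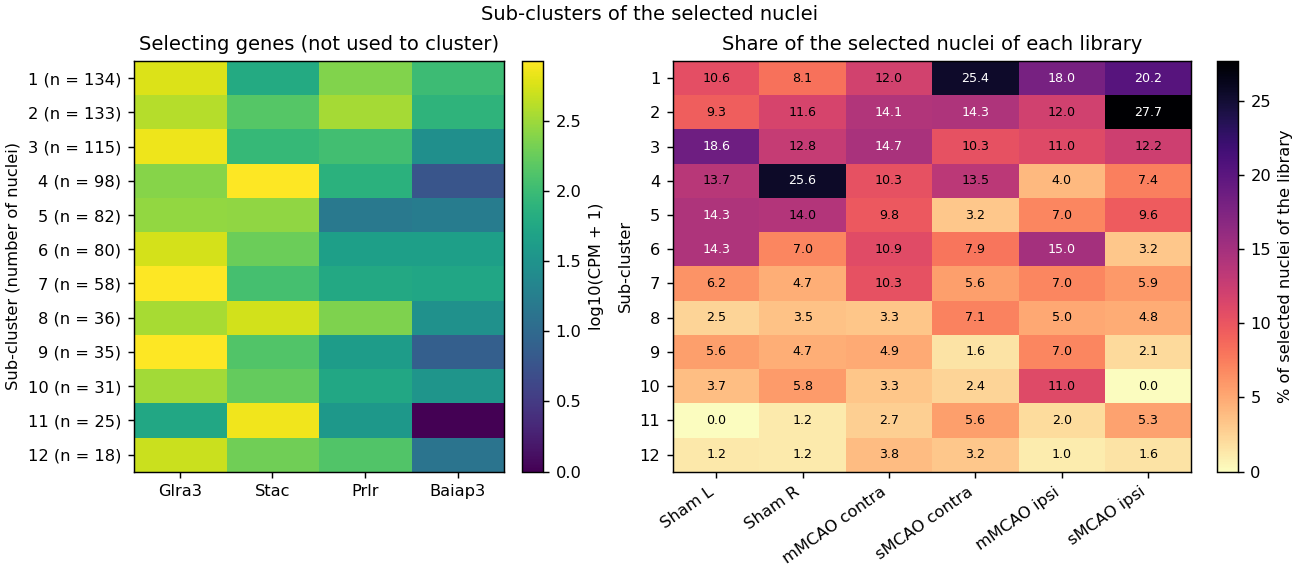
Left, levels of the 4 selecting genes in the 12 sub-clusters as log10(CPM + 1) by colour, and right, percent of the selected nuclei of each library that fell in each sub-cluster. Stac peaks in sub-cluster 4 (825 CPM) and Prlr in sub-cluster 2 (335 CPM), which takes 27.7% of the selected nuclei of sMCAO ipsi.

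The label of subcortical neurons was checked against transcription factors of subcortical regions. Listed factors of hypothalamic and thalamic territories were at or near 0. Otp had 1 UMI over all 845 nuclei, Sim1 had 3 and Nkx2-1 had 10. Lhx1, Six6, Gata3, Sox14 and Nkx2-2 had 0. Such counts are a weak guide, since nuclei with Slc17a7 or Slc17a6 UMIs were left out and factors can be sparsely captured. The GABAergic factor gene Dlx6 was itself at most 15.9 CPM in nuclei grouped by leading gene. Zic1, a factor of the septum among other regions, had 54 UMIs in 44 nuclei, Isl1 had 31 UMIs and Six3 had 19. Foxp2 and Meis2, which are broad markers of striatal, amygdalar and other subcortical neurons, were found in 23% and 38.8% of the nuclei. Among cortical interneuron markers, Erbb4 was found in 74.8%, Adarb2 in 58.2%, Nxph1 in 55.6%, Reln in 29.3%, Lhx6 in 9.94% and Lamp5 in 3.91%. Erbb4 is not specific here: its mean level was 2585 CPM in the selected nuclei, 8119 CPM in the GABAergic nuclei without the 4 genes and 3263 CPM in nuclei with oligodendrocyte transcripts. No listed factor placed the nuclei as a whole in 1 region, and the name by their selecting genes is kept.

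GABAergic identity itself rested on the Gad genes. Gad2 was detected in 75.5% of the nuclei and Gad1 in 67.5%, which the selection required in part. Slc32a1, the vesicular GABA transporter gene, which the selection did not use, was sparser and found in 7.69%.

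To ask what else set these nuclei apart, their summed UMIs were compared with those of the 6582 nuclei that met every other criterion but had 0 UMIs of the 4 genes, library by library. The selected nuclei were the deeper ones in each library (medians of 2831.5 to 6561 against 2167 to 5682 UMIs). Of 11451 genes tested, 131 were higher in the selected nuclei (1.14%) and 218 lower (1.9%) by at least 1 on the log2 scale at an adjusted p under 0.05 (edgeR, quasi-likelihood). These 349 genes (3.05%) describe what the division by 4 genes brings with it.

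The genes that were higher included developmental transcription factors, receptors and cell surface proteins. Ndst4 was 447 and 823 CPM in the selected nuclei of Sham, 333 and 448 in those of MCAO contra, 145 and 389 in those of MCAO ipsi, and 34.9 to 85.7 CPM in the comparison nuclei (log2 fold change 2.68 ± 0.14 SE, adjusted p = 4.01e-15). The 2 populations did not overlap, and the lowest selected value, mMCAO ipsi, was far below the highest, Sham R. Tshz2, a zinc finger factor, was 327 to 585 CPM against 106 to 159 CPM (1.72 ± 0.08, adjusted p = 1.11e-16). Zfhx3 was 111 to 235 CPM against 34.6 to 89.5 CPM (1.40 ± 0.08) and Zfhx4 was 121 to 249 CPM against 56.1 to 78.4 CPM (1.33 ± 0.09).

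Other genes that were higher in all 6 libraries were the actin-binding protein gene Klhl1 (log2 fold change 1.72), the collagen gene Col25a1 (1.52), the glypican genes Gpc3 (1.38) and Gpc5 (1.23), the cadherin gene Cdh4 (1.23), the protocadherin gene Pcdh11x (1.09) and the pyrimidine catabolism gene Dpyd (1.09). Gpc5 rested on sub-cluster 5, where it was 5427 CPM against 490 CPM in the other selected nuclei, a level within the 297 to 762 CPM of the comparison nuclei. Ndst4 was 1587 CPM in sub-cluster 4 and 196 CPM outside it, still above the comparison nuclei. The glycine receptor subunit gene Glra2, which took no part in the selection, was 83.4 to 148 CPM against 36.5 to 47.8 CPM (1.27 ± 0.11, adjusted p = 2.80e-10). The GABA receptor subunit gene Gabrg1 was also higher (1.13 ± 0.09).

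The genes that were lower included receptors, enzymes and transcription factors. The growth factor receptor gene Egfr was 10.1 to 20 CPM in the selected nuclei and 122 to 180 CPM in the comparison nuclei (log2 fold change −3.51 ± 0.14, adjusted p = 3.05e-18). Eya4, a transcriptional coactivator, was 10.1 to 39.9 CPM against 230 to 369 CPM (−3.37 ± 0.13), and the cyclic GMP phosphodiesterase gene Pde5a was lower by a similar amount (−3.49 ± 0.18). Osbpl3 (−2.07), Col19a1 (−2.06), Zeb2 (−2.01), Runx2 (−1.90) and Tcf4 (−1.88) were lower in all 6 libraries. Zeb2, a factor needed for cortical interneuron development, was still present at 70.3 to 267 CPM.

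**Figure D4:**
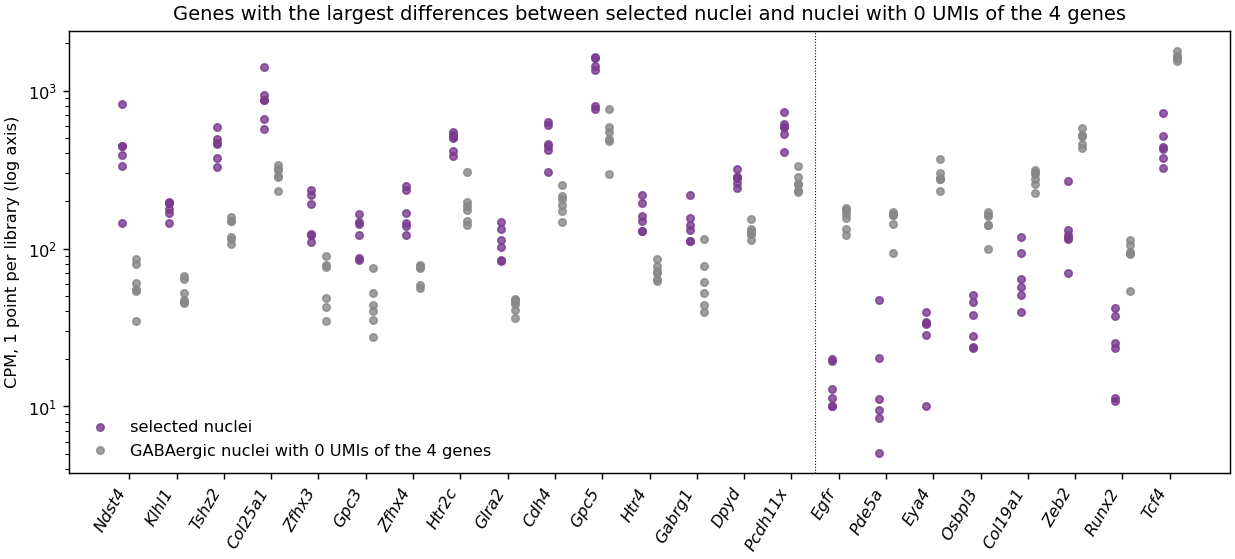
Levels of the named genes in CPM on a log axis, with 1 point per library, in the selected nuclei (purple) and in the GABAergic nuclei with 0 UMIs of the 4 selecting genes (grey). Genes left of the dotted line were higher in the selected nuclei and genes right of it lower, with Ndst4 (log2 fold change 2.68) and Egfr (−3.51) at the head of each side.

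Transcription factors of subcortical regions were mixed. Of 37 listed, 28 could be tested, and 7 were higher and 3 lower, beside 1.14% higher and 1.9% lower among all genes tested. Ebf1 was higher by 2.38 ± 0.18, Lhx8 by 2.0 ± 0.20, Tshz2 by 1.72 ± 0.08, Onecut2 by 1.53 ± 0.39, Zfhx3 by 1.40 ± 0.08, Zfhx4 by 1.33 ± 0.09 and Zic4 by 1.17 ± 0.35 on the log2 scale. Nfib (−1.34), Satb1 (−1.16) and Tshz1 (−1.15) were lower. Ebf1 was 965 CPM in sub-cluster 7 and 30.7 CPM in the other selected nuclei, against 7.59 to 26.0 CPM in the comparison nuclei. Lhx8 was 137 CPM in sub-cluster 4 and 13.5 CPM in the others, against 4.92 to 12.4 CPM, and Zic4 was 58.9 CPM in sub-cluster 3 and 3.81 CPM in the others, against 2.33 to 9.04 CPM. Outside these sub-clusters Zic4 thus lay within the range of the comparison nuclei, and Ebf1 and Lhx8 just above it. The median of the 28 was 0.18 against 0.00 over all genes tested. Of 10 cortical interneuron markers tested, 0 were higher and 4 lower, namely Erbb4 (−1.68), Cck (−1.45), Kcnc2 (−1.43) and Nxph1 (−1.41), with a median of −0.75. Adarb2 differed by −0.12 and was not called.

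Hormone and peptide receptor genes are read beside the 1.14% of all genes tested that were higher and the 1.9% that were lower. The oestrogen receptor gene Esr1 was among the steroid receptor genes that were higher (1.59 ± 0.21, adjusted p = 1.41e-06), and the progesterone receptor gene Pgr was not called (0.46). Not every gene called in that list is given here. Of 23 peptide and amine receptor genes tested, 5 were higher: the galanin receptor gene Galr1 (2.80 ± 0.57, at a mean of only 5.51 CPM), the corticotropin-releasing hormone receptor gene Crhr1 (1.48 ± 0.22), the serotonin receptor genes Htr2c (1.32 ± 0.08) and Htr4 (1.14 ± 0.10), and the κ-opioid receptor gene Oprk1 (1.30 ± 0.31). The δ-opioid receptor gene Oprd1 was the 1 that was lower (−1.31 ± 0.17). Htr2c was the most abundant of these, at 385 to 547 CPM in the selected nuclei and 140 to 303 CPM in the comparison nuclei, so the populations did not overlap.

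The partners of the selecting genes were counted beside the 3.05% called among all genes tested, a share at which lists of this size hold few calls or none. Of 15 genes of the prolactin receptor pathway tested, 0 were called. The related growth hormone receptor gene Ghr differed by 0.44 and the signal transducer gene Stat5b by 0.38, and the ligand gene Prl had 0 UMIs in the selected nuclei. Of 16 Stac family and voltage-gated calcium channel genes, 1 was called, the relative Stac2, which was lower (−1.02 ± 0.17). Of 22 genes of the Munc13 family and vesicle release, 0 were called. Of 23 genes for GABA and glycine synthesis, uptake and receptors, Glra2 and Gabrg1 were higher and the extrasynaptic receptor subunit gene Gabrd was lower (−2.39 ± 0.41).

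Neuropeptide and injury genes are read beside the same shares of all genes tested, 1.14% higher and 1.9% lower. Of 10 neuropeptide genes tested, the neurotensin gene Nts was higher (12.7 against 3.36 CPM on average, 1.92 ± 0.41), and Cck (−1.45), the tachykinin precursor gene Tac1 (−1.41) and Npy (−1.08) were lower. Among 9 injury and axon growth genes, Gap43, a growth cone protein gene, was higher (207 against 100 CPM on average, 1.02 ± 0.08), as was Ecel1 (1.58 ± 0.50, at 5.52 CPM). Of 16 heat shock, 14 immediate early and 17 glycolysis genes, 0 were called. Of 10 oligodendrocyte, 6 astrocyte and 6 myeloid markers tested 0 were higher, and 2, 1 and 1 were lower, lists too short to be set apart from those shares.

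Set beside nuclei with striatal medium spiny neuron transcripts, which the rule excluded by Rarb and Rgs9, the selected nuclei differed in 1733 of 11959 genes tested (14.5%), 924 higher (7.73%) and 809 lower (6.76%). Set beside GABAergic nuclei with at least 2 UMIs of the interneuron genes Sst and Vip, they differed in 256 of 5734 genes (4.46%), 118 higher (2.06%) and 138 lower (2.41%), but only 151 such nuclei were found, of which 7 and 6 came from the 2 Sham libraries.

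Between the occluded hemisphere and Sham, 59 of 7725 genes tested differed in the selected nuclei (0.764%), of which 27 were higher in MCAO ipsi (0.35%) and 32 lower (0.414%), by at least 0.6 on the log2 scale at an adjusted p under 0.05. The count was 21 with DESeq2, 29 without Sham R and 183 without mMCAO ipsi, and 9 of the 19 named genes were called in each alternative run. The mitochondrial genes Mt-co1, Mt-co2 and Mt-cyb and the granule protein gene Scg2 were among those that rose. Alk, the heparan sulphate enzyme genes Hs3st4 and Hs6st3 and the splicing regulator gene Srrm4 were among those that fell. For 58 of the 59 genes, all but Pde1c, the Sham and MCAO ipsi values did not overlap, as was the case for 39.1% of all 7725 genes. At 2 pooled libraries per group, fewer nuclei of 1 kind and less RNA of a gene per nucleus cannot be told apart.

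Mt-co1, which encodes a subunit of cytochrome c oxidase, was 51.8 and 43.7 CPM in Sham, 167 and 185 in MCAO contra, and 156 and 180 in MCAO ipsi (MCAO ipsi against Sham, log2 fold change 1.75 ± 0.21, adjusted p = 0.000154). All 4 MCAO libraries were above both Sham libraries, and the 2 hemispheres of the MCAO rats overlapped. Mt-co2 (1.48 ± 0.22, adjusted p = 0.000859) and Mt-cyb (1.44 ± 0.22, adjusted p = 0.000989) rose with it. Mitochondrial transcripts together were 0.0401% and 0.0383% of the UMIs of the selected nuclei in Sham, 0.0813% and 0.106% in MCAO contra and 0.0972% and 0.104% in MCAO ipsi. In all nuclei after quality control they were 0.0476% and 0.0512% in Sham, 0.0567% and 0.0796% in MCAO contra and 0.0695% and 0.213% in MCAO ipsi, a difference that moves with the result and whose part in it was not tested.

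Scg2, which encodes the granule protein secretogranin II, was 24.4 and 20.2 CPM in Sham, 93.0 and 96.5 in MCAO contra, and 100 and 87.6 in MCAO ipsi (1.93 ± 0.28, adjusted p = 0.000717). Pcsk1n, the gene of a prohormone convertase inhibitor, was 18.7 and 30.2 CPM in Sham, 96.6 and 75.7 in MCAO contra, and 66.7 and 88.4 in MCAO ipsi (1.80 ± 0.31, adjusted p = 0.00382). Both genes showed all 4 MCAO libraries above Sham with no separation of the hemispheres. In the nuclei without the 4 genes, Scg2 rose by 1.14 and Pcsk1n by 1.17 in the same contrast, and both were called. Across all nuclei after quality control Scg2 was 13.2 and 16.7 CPM in Sham, 28.5 and 38.2 in MCAO contra, and 20.9 and 36.1 in MCAO ipsi. Pcsk1n was 16.5 and 22.2 CPM in Sham, 42.7 and 47.7 in MCAO contra, and 34.7 and 56.3 in MCAO ipsi there. The part of these wider differences in the results was not tested.

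Fth1, the ferritin heavy chain gene, was 14.4 and 20.2 CPM in Sham, 58.0 and 62.4 in MCAO contra, and 53.4 and 103 in MCAO ipsi (2.35 ± 0.35, adjusted p = 0.000989). It was highest in sMCAO ipsi. Over all nuclei after quality control Fth1 was 13.1 and 16.4 CPM in Sham, 32.4 and 40.2 in MCAO contra, and 41.1 and 217 in MCAO ipsi. This wider difference moves with the result, and its part in it was not tested. The phosphatase gene Ptpn5 was 97.8 and 108 CPM in Sham, 193 and 223 in MCAO contra, and 176 and 227 in MCAO ipsi (0.98 ± 0.19, adjusted p = 0.0148).

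Glis3, a zinc finger transcription factor gene, was the named gene with the highest fold change and among the least abundant. It was 2.88 and 0 CPM in Sham, 10.9 and 13.2 in MCAO contra, and 35.6 and 38.4 in MCAO ipsi (4.06 ± 0.64, adjusted p = 0.00171). The Sham value rested on 2 UMIs and the MCAO ipsi value on 69, a ratio of 18.7 with a counting interval of 4.99 to 158. Over all nuclei after quality control Glis3 was 37.6 and 40.5 CPM in Sham and 101 and 195 CPM in MCAO ipsi, above its level in the selected nuclei of the same libraries, and the part of RNA from other nuclei in the result was not tested.

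Alk had the smallest adjusted p of the genes that fell. It was 1172 and 1267 CPM in Sham, 622 and 746 in MCAO contra, and 434 and 613 in MCAO ipsi (−1.24 ± 0.16, adjusted p = 0.000156). Sub-cluster 4, which Alk leads, held fewer of the selected nuclei in MCAO ipsi, as given above. Outside that sub-cluster Alk was 646 and 526 CPM in Sham, 351 and 305 in MCAO contra, and 365 and 374 in MCAO ipsi, so Sham stayed above all 4 MCAO libraries. Inside it Alk was 3562 and 2655 CPM in Sham, 2657 and 2669 in MCAO contra, and 1916 and 2342 in MCAO ipsi, so only MCAO ipsi lay below both Sham libraries there. Those MCAO ipsi values rest on 4 and 14 nuclei, and Sham R was nearly level with both MCAO contra libraries.

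Hs3st4 was 837 and 907 CPM in Sham, 560 and 653 in MCAO contra, and 318 and 446 in MCAO ipsi (−1.20 ± 0.16, adjusted p = 0.00022), an order in which the 3 groups did not overlap. Srrm4, which controls neuronal microexons, was 385 and 460 CPM in Sham, 275 and 238 in MCAO contra, and 211 and 208 in MCAO ipsi (−1.04 ± 0.16, adjusted p = 0.00114). The transcription factor genes Mitf (−1.18 ± 0.19) and Zfp536 (−1.05 ± 0.19) and the genes Hs6st3 (−0.95 ± 0.16), Atp2b2 (−0.78 ± 0.15), a plasma membrane calcium pump, and Klhl29 (−0.77 ± 0.15) also fell. Outside sub-cluster 4, Mitf was 68.4 and 108 CPM in Sham, 73.9 and 53.5 in MCAO contra, and 65.1 and 56.9 in MCAO ipsi, so Sham and MCAO contra overlapped there while both MCAO ipsi values lay below both Sham values. Zfp536 outside it was 237 and 196 CPM in Sham, 175 and 142 in MCAO contra, and 144 and 117 in MCAO ipsi, with Sham above all 4 MCAO libraries.

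**Figure D5:**
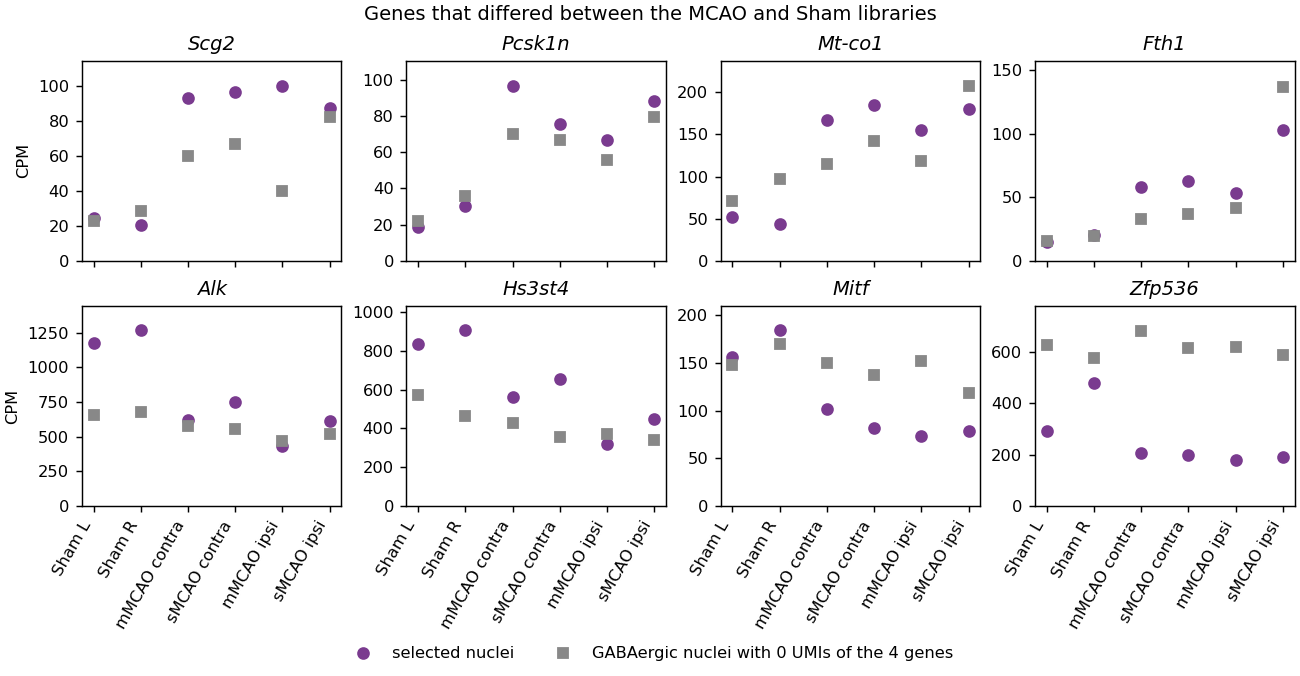
Levels of 8 genes in each library in CPM, from 0, in the selected nuclei (purple circles) and in the GABAergic nuclei with 0 UMIs of the 4 selecting genes (grey squares), with 1 point per library. In the selected nuclei Scg2, Pcsk1n, Mt-co1 and Fth1 are higher and Alk, Hs3st4, Mitf and Zfp536 lower in all 4 MCAO libraries than in both Sham libraries.

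The calls between MCAO ipsi and Sham in the listed gene groups stand beside the 0.764% called among all genes tested. Scg2 was the 1 gene called of 4 neuropeptide and granule genes tested. The GABA receptor subunit gene Gabrb2 fell (−0.70 ± 0.16, adjusted p = 0.036) as 1 of 20 GABA and glycine genes, the calcium channel subunit gene Cacna2d2 fell (−0.97 ± 0.21, adjusted p = 0.0269) as 1 of 15 Stac and calcium channel genes, and the vesicle priming gene Cadps2 rose (0.72 ± 0.16, adjusted p = 0.0364) as 1 of 21 vesicle release genes. No call was made among 13 prolactin receptor pathway, 9 steroid receptor, 16 subcortical transcription factor and 13 peptide and amine receptor genes. The same held for 13 heat shock, 8 glycolysis, 4 injury and 2 immediate early genes. Their medians ran from −0.21 for the peptide and amine receptors to 0.37 for the steroid receptors, against 0.01 over all 7725 genes.

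Markers of other cell types were counted in the same sums. The 10 oligodendrocyte markers summed to 104 and 128 CPM in Sham, 186 and 229 in MCAO contra, and 105 and 156 in MCAO ipsi, with Mbp the most abundant and none of the 10 at 0 in all libraries. The 10 astrocyte markers, led by Slc4a4, stayed between 118 and 169 CPM in all 6 libraries. The 12 myeloid markers were led by Spp1 at a mean of 3.39 CPM. They summed to 17.3 and 3.36 CPM in Sham, 7.25 and 13.2 in MCAO contra, and 37.8 and 33.3 in MCAO ipsi. The 8 vascular markers were 8.63 and 3.36 CPM in Sham and 6.67 and 29.0 CPM in MCAO ipsi, with Dcn at 0. The myeloid sum was thus higher in both MCAO ipsi libraries than in Sham and MCAO contra, and its part in the results was not tested.

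In the hemisphere opposite the occlusion, 22 of the 7725 genes differed from Sham (0.285%), 9 higher (0.117%) and 13 lower (0.168%), and the groups did not overlap for any of the 22, as for 41.9% of all genes tested. The count was 1 in nuclei with at least 4 marker UMIs, 4 without sMCAO contra and 83 without mMCAO ipsi, and 0 of the 16 named genes were called in each alternative run. This comparison shares its Sham libraries with the one above, so the values stand side by side. Mt-co1 rose by 1.74 ± 0.22 (adjusted p = 0.000424), Scg2 by 1.93 ± 0.28 (adjusted p = 0.00275), Pcsk1n by 1.87 ± 0.31, Mt-co2 by 1.35 ± 0.22, Ptpn5 by 0.94 ± 0.19 and Mt-cyb by 1.08 ± 0.23. The transporter gene Slc22a17 (1.11 ± 0.21) and the vesicular protein gene Caly (1.66 ± 0.32) rose too. Alk fell by 0.93 ± 0.15 (adjusted p = 0.00613), as did Zfp536 (−0.97), Mitf (−0.94, with overlap of the groups outside sub-cluster 4 as given above), Tafa2 (−0.89), the adenylyl cyclase gene Adcy2 (−0.86), Srrm4 (−0.78), Cntnap4 (−0.73) and Ppargc1a (−0.71), a coactivator of mitochondrial gene expression.

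Between the 2 hemispheres of the MCAO rats, 0 of 7725 genes were called by edgeR, with 399 genes at an unadjusted p under 0.05. DESeq2 also called 0, with 36 at an unadjusted p under 0.05, and the fit with the rat pool as a block called 2. Leaving out 1 library gave 1 to 22 calls, 22 without sMCAO ipsi. Glis3 was higher in MCAO ipsi by 1.69 and Hs3st4 lower by 0.59 in this contrast, and neither was called. In the nuclei without the 4 genes, which held more UMIs in each library, 44 of 12214 genes were called between the hemispheres (0.36%) and 13 between MCAO contra and Sham (0.106%).

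The change from Sham to MCAO ipsi was then compared between the selected nuclei and the nuclei without the 4 genes. Of 11451 genes tested, 23 differed in this change (0.201%), 9 with a more positive (0.0786%) and 14 with a more negative change (0.122%) in the selected nuclei. DESeq2 called 0 genes for this term, and 0 of the 21 named genes were called in each alternative run. Zfp536 was 292 and 481 CPM in the selected nuclei of Sham and 178 and 190 CPM in those of MCAO ipsi, whereas in the comparison nuclei it was 626 and 578 CPM in Sham and 617 and 589 CPM in MCAO ipsi (difference of changes −0.97 ± 0.19, adjusted p = 0.0245). Alk was lower in MCAO ipsi in both populations, by 1.24 in the selected and by 0.50 in the comparison nuclei. The second change was under the limit of 0.6 and so was not called. The difference of −0.78 ± 0.15 was called (adjusted p = 0.0241). Pde10a, a phosphodiesterase gene of striatal neurons, fell by 1.18 in the comparison nuclei and changed by −0.44 in the selected nuclei (difference 0.69 ± 0.14, adjusted p = 0.0301). Over all nuclei that passed quality control Pde10a was 1468 and 1470 CPM in Sham and 584 and 565 CPM in MCAO ipsi, and in neuron nuclei with vesicular glutamate transporter molecules and none of Gad1 or Gad2 it was 1397 and 1392 CPM and then 479 and 473 CPM. The part of these wider differences in the called one was not tested. For Mt-co1 (0.69), Scg2 (0.59), Fth1 (−0.20) and Glis3 (2.44) the difference of changes was not called. In the comparison nuclei 274 of 12214 genes differed between MCAO ipsi and Sham (2.24%), and 17 genes were called in both populations, 28.8% of the 59 and 6.20% of the 274.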

How the data were processed

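Nuclei of 6 libraries were profiled with a 5′ single-cell chemistry. The deposited values are whole UMI counts per gene and nucleus, which the authors made with Cell Ranger against mRatBN7.2 (submitters' processing notes: version 7.0.0), without removal of ambient RNA or doublets. Nuclei with at least 500 UMIs, 250 to 5000 genes and at most 5% mitochondrial UMIs were kept. Counts were summed per library and population and tested with edgeR 4.0.16 in R 4.3.3 (TMM, filterByExpr, quasi-likelihood, 3 residual degrees of freedom for the selected nuclei, Benjamini-Hochberg), with all 6 libraries in 1 fit. Population contrasts had the library as a block. DESeq2 1.42.0 was an alternative. Sub-clusters came from Leiden clustering (1000 variable genes, 20 principal components, 15 neighbours, resolution 1) without the selecting genes. Doublet-like nuclei were the 5% of each library closest to simulated doublets.

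Genes named were, against other GABAergic nuclei, the 15 highest and 8 lowest changes among called genes of at least 50 CPM with 1 direction in all libraries, and, between conditions, the 8 smallest adjusted p-values in each direction without overlap of groups, plus called list members. Genes without a symbol were passed over, and the genes of the selection stayed in the fits but were counted in no calls. The selection and the gene lists were chosen with earlier results of these data known. MCAO contra and ipsi libraries of a pool came from the same rats, and their deviations from the group means correlated at 0.0627 over 7725 genes. With 2 libraries per group this value is necessarily the same for both pools. It cannot separate the rats from the severity, so it does not show whether the pairing matters. The statistical scripts were tested on simulated data. P-values between conditions measure the spread between the libraries of a group. For Sham that spread is between hemispheres of the same rats, and for MCAO between pools of different severity. P-values of the population contrasts and of the difference of changes measure the spread of within-library differences across libraries. A few results are not reported here.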

Additional observations from a re-analysis of the deposited data

Results flagged for a closer look

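The change from Sham to MCAO ipsi differed between the selected nuclei and the GABAergic nuclei without the 4 selecting genes for 23 genes, by edgeR's test of the difference itself (an interaction term with the library as a block). DESeq2 called 0 for the same term. The 21 genes with a symbol are given as the log2 change in the selected nuclei minus that in the comparison nuclei, over 2 libraries per group. A more positive change in the selected nuclei was found for Ptpru (2.75), Tox (1.03), Sox5 (0.87), Ldb2 (0.85), Ptprd (0.73), Pde10a (0.69), Grm7 (0.65) and Schip1 (0.64). A more negative change was found for Sntb1 (−2.26), Adgra3 (−2.01), Megf11 (−1.30), Ndst4 (−1.30), Dach1 (−1.27), Cdh20 (−1.19), Sema3c (−1.18), Zfp536 (−0.97), Zfp521 (−0.91), Cacna2d2 (−0.90), Cntn6 (−0.83), Alk (−0.78) and Adcy2 (−0.70).

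Ptpru, a receptor phosphatase gene, was 8.63 and 6.72 CPM in the selected nuclei of Sham and 40.0 and 29.7 CPM in those of MCAO ipsi, moderate pool first. In the comparison nuclei it was 31.7 and 25.5 CPM in Sham and 16.6 and 19.4 CPM in MCAO ipsi. The Sham values of the selected nuclei rest on 6 and 2 UMIs, and the change in the selected nuclei was not called by edgeR (adjusted p = 0.0515), while the fall in the comparison nuclei was (adjusted p = 0.0358). Sntb1, a syntrophin gene, was 47.4 and 67.2 CPM in the selected nuclei of Sham and 42.2 and 31.9 CPM in those of MCAO ipsi, against 12.8 and 17.6 CPM and then 22.0 and 58.6 CPM in the comparison nuclei. Ndst4, Alk and Sema3c are leading genes of sub-cluster 4, and Adcy2 (1802 CPM inside it against 505 outside), Zfp536 (646 against 159), Cdh20 (550 against 206) and Cacna2d2 (479 against 148) were also higher there. Outside it Adcy2 was 642 and 696 CPM in Sham and 649 and 417 CPM in MCAO ipsi, so the groups overlapped. For other genes they did not overlap outside it: Ndst4 was 279 and 361 CPM in Sham and 100.02 and 206 CPM in MCAO ipsi, Cdh20 was 237 and 371 CPM and then 116 and 200.4 CPM, and Cacna2d2 was 177 and 227 CPM and then 86.1 and 135 CPM. The sub-cluster's share of the selected nuclei was lower in MCAO ipsi than in Sham, and its part in the values of these 7 genes was not tested. Megf11 is a leading gene of sub-cluster 5 (240 CPM against 50.1 outside), which held 14.3% and 13.95% of the selected nuclei of Sham and 7% and 9.57% of those of MCAO ipsi. Dach1 is one of sub-cluster 1 (315 CPM against 106), which held 10.6% and 8.14% in Sham and 18% and 20.2% in MCAO ipsi. The part of these shares in both genes' values was not tested.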

How the results depend on the processing

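With 2 pooled libraries per group, counts of called genes between conditions moved with the settings, and the cause was not tested. MCAO ipsi against Sham gave 59 calls, and 21 with DESeq2, 133 with no filter on low counts, 20 in nuclei with at least 4 marker UMIs and 95 with at least 2. Leaving out 1 library gave 29 (without Sham R) to 183 (without mMCAO ipsi). Such a fit can leave a group with 1 library, which is assumed to vary like the other groups. MCAO contra against Sham gave 22 calls, and 13 with DESeq2, 73 with no filter and 1 with at least 4 marker UMIs. Without 1 library it gave 4 (without sMCAO contra), 7 (without Sham R), 35 (without Sham L), 65 (without sMCAO ipsi) or 83 (without mMCAO ipsi). MCAO ipsi against MCAO contra gave 0 calls, 6 with no filter, 2 with the rat pool as a replicate block and 1 to 22 without 1 library (22 without sMCAO ipsi). The difference of changes gave 23 calls, 0 with DESeq2, 55 with no filter and 13 (without Sham R) to 65 (without Sham L), with 53 without sMCAO ipsi.

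The share of neurons, in the order Sham L, Sham R, mMCAO contra, sMCAO contra, mMCAO ipsi and sMCAO ipsi, was 0.443, 0.180, 0.476, 0.520, 0.284 and 1.05% after thinning. It was 0.854, 0.299, 0.726, 0.854, 0.572 and 3.76% with at least 4 marker UMIs and 2.76, 1.48, 3.54, 3.12, 1.87 and 8.68% with at least 2. Clustering at resolution 0.5 gave 6 sub-clusters in place of 12. Calls against the nuclei without the 4 genes lay between 329 and 347 without 1 library and were 233 when the comparison nuclei could hold up to 2 marker UMIs, where 19 of 53 named genes were no longer called. Wherever they could be tested, named genes kept their direction. Those called in each alternative run were 31 of the 53, 9 of 19 for MCAO ipsi against Sham, 0 of 16 for MCAO contra against Sham and 0 of 21 for the difference of changes.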
